A study of Mus musculus with 6 samples.

Results

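The genes described here encode IGF-binding proteins (IGFBPs). They are 6 genes chosen by name, Igfbp1, Igfbp2, Igfbp3, Igfbp4, Igfbp6 and Igfbp7, out of 20416 genes that the array's annotation names. The 27 probe sets annotated to 1 of them alone, of 234873 on the array, carry their values. They were measured in hepatocytes of 3 mice transgenic for a miR-143 allele that doxycycline induces (miR-143DOX) and of 3 wildtype littermates (control), all adult and on a C57BL/6 background. For 8 days both groups drank 4 mg/ml doxycycline in 10% sucrose, and the control mice therefore had the drug and the sugar too. The cells were freed by collagenase perfusion of the liver and frozen, and the RNA of each mouse was read on 1 Affymetrix array. The sources used here do not give the promoter that drives the transgene, and miR-143 was not measured in the values analysed here.

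IGFBPs are secreted proteins that hold insulin-like growth factors (IGF-I and IGF-II) in the blood and between cells, lengthen their life and control how much reaches the IGF receptors. Hepatocytes are a main source of circulating IGF-I and of several binding proteins. Igfbp1 is switched on by FoxO1 and shut off by insulin within hours, and Igfbp2 in liver is higher in fasting and lower with insulin. IGFBP-4 is mostly an inhibitor of IGF action, IGFBP-3 carries most IGF in serum in a complex with the acid-labile subunit, IGFBP-6 prefers IGF-II, and IGFBP-7 is a relative with low affinity for IGFs that blood vessel cells make in quantity.

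The promoters of 2 members are shown because the first holds the insulin response unit that makes Igfbp1 a readout of FoxO1 activity, and the second belongs to Igfbp2, the member with the smallest p between the groups. RefSeq start sites were found for 6 of the 6 genes, and each window runs from 250 bases before the start to 50 after it, 300 in all. Igfbp1 is at chr11:7197537-7197836 (GRCm38.p6, + strand) and Igfbp2 at chr1:72824230-72824529 (GRCm38.p6, + strand), both printed 5′ to 3′ from RefSeq. Capitals mark CAAAACAA and CAAAATAA (written TTATTTTG on the printed strand), 2 forms of the insulin response sequence, and GGGCGG, the GC box.
Igfbp1: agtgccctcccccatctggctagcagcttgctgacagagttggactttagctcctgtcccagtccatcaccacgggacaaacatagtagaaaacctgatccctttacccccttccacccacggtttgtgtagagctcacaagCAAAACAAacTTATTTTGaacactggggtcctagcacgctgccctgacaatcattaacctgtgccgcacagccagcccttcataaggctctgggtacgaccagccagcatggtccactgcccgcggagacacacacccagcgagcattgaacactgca
Igfbp2: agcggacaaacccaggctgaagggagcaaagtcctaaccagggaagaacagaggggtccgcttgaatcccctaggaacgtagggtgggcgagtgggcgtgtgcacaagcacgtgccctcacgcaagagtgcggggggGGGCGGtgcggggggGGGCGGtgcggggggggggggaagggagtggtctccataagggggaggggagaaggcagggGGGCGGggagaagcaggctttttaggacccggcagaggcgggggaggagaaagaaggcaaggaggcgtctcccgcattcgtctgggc

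The 4 motifs CAAAACAA, CAAAATAA, GGGCGG and TATAAA (the TATA box) were searched on both strands in the 7 windows of the members, since RefSeq gives Igfbp2 a second start, and in 32851 windows in all. Igfbp1 held CAAAACAA at -108 to -101 and CAAAATAA, on the other strand, at -98 to -91 from its start, without overlap. Each form occurred in 2.51% and 1.66% of all windows and both together in 0.1%. Igfbp1 was the only member with either. Among the insulin-repressed genes listed further on, Irs2 held CAAAACAA once, and Apoc3 had no window to search. Igfbp2 held 3 copies of GGGCGG at its first start and none at its second, and Igfbp7 held 4. One or more copies occurred in 35.7% of all windows and 3 or more in 10.7%. TATAAA stood at -28 to -23 in Igfbp4 and once, on the other strand, in Igfbp6, against 13.6% of all windows. A match is a run of letters and was not tested for binding.

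Igfbp2 measured lower in the hepatocytes of every miR-143DOX mouse than in those of every control mouse, at a difference of -0.59 on the log2 scale. Igfbp1, the FoxO1 target that insulin represses, differed by -0.09, less than the spread within either group. No member passed 5% false discovery rate (FDR) in limma's moderated test, and neither did any other of the 15312 genes tested (0% called). At an unadjusted p under 0.05 stood 1 of the 6 members, Igfbp2, against 469 genes or 3.06% of those tested. The groups did not overlap for 2 members, Igfbp2 (lower in miR-143DOX) and Igfbp6 (higher), against 7.13% of all tested genes either way. The mean of Igfbp6 rests in part on a probe set too dim to be tested, the only 1 of its 5 higher in all miR-143DOX mice. Of the 6 differences 5 lay below 0 (47.6% of all tested genes did), and their median was -0.12, beside 0.0083 over all genes tested. With 1 mouse left out, 3 to 5 of them lay below 0, the fewest without control replicate 3. Values are log2 intensities after quantile normalization. Each gene is the mean of all its probe sets, also of those too dim to be tested singly. Probe sets bind with different strength, so a level is compared only between mice and not between genes. All differences are miR-143DOX minus control. Of their 24 probe sets bright enough to be tested, 17 lay below 0 (49.2% of all tested probe sets did) and 4 had groups that did not overlap (8.88% of all tested ones did). Probe sets of 1 gene read the same gene in the same mice, so they are not independent. The 17 include all 4 of Igfbp2, all 4 of Igfbp4 and all 5 of Igfbp7.

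**Figure D1:**
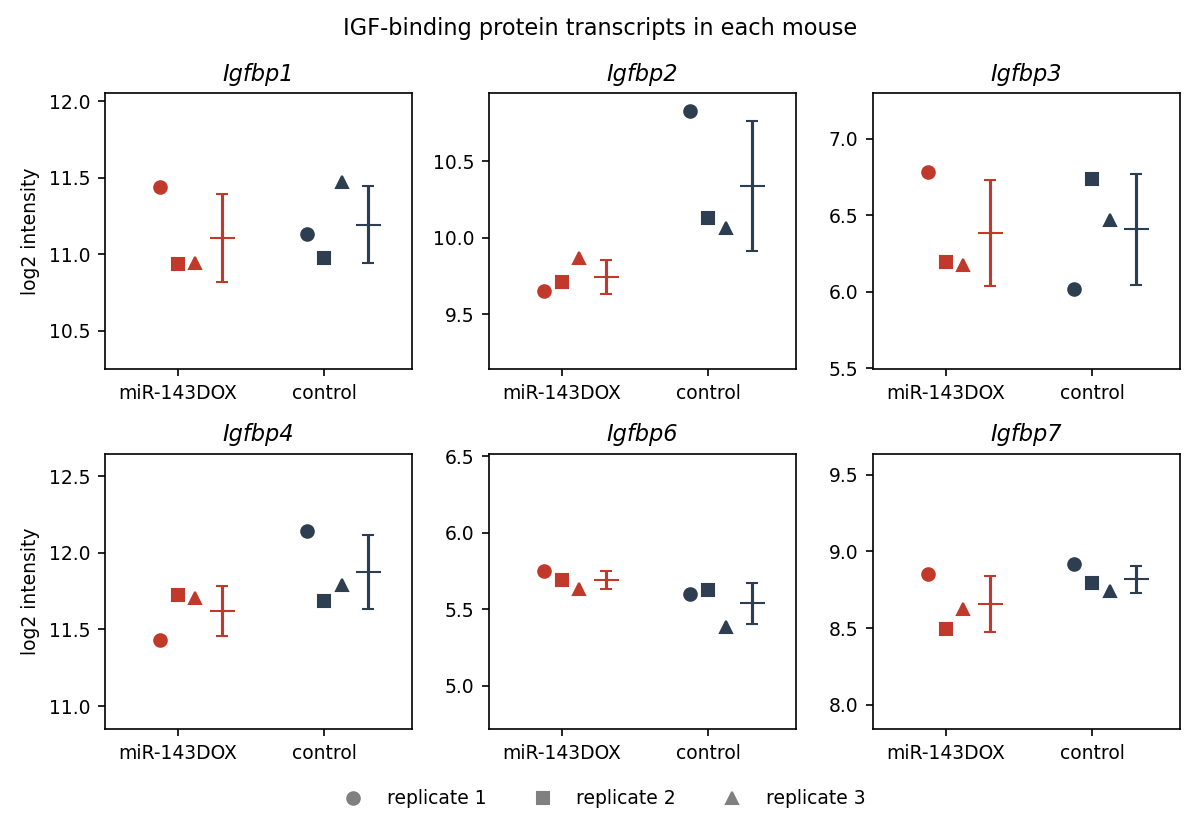
Log2 intensity of each IGF-binding protein gene in every mouse, miR-143DOX left and control right, with symbols for the replicate number and bars for the mean and SD of 3 mice. Every panel spans the same number of log2 units. The 3 miR-143DOX mice lie below all control mice for Igfbp2, and control replicate 1 stands highest for both Igfbp2 and Igfbp4.

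The arrays were alike, with Pearson r of 0.936 to 0.954 between them across probe sets. All 10 hepatocyte markers were bright enough to be tested, albumin (Alb) stood at 14.41 ± 0.08 in miR-143DOX and 14.37 ± 0.23 in control hepatocytes (SD, n = 3 each), and the mean of the 10 markers ran from 12.16 to 12.27 in miR-143DOX and from 12.17 to 12.31 in control arrays. Markers of other liver cells were measurable too, and their values stand beside the members they bear on. In RNA of a whole preparation, fewer cells of a type and less RNA per cell cannot be told apart.

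Igfbp1 measured 11.44, 10.94 and 10.94 in miR-143DOX mice 1 to 3, against 11.13, 10.98 and 11.47 in control mice 1 to 3. The groups overlapped, with 1 high mouse in each (miR-143DOX replicate 1 and control replicate 3) and the other 4 between 10.94 and 11.13. The means were 11.11 ± 0.29 in miR-143DOX and 11.19 ± 0.25 in control (SD, n = 3 each), a difference of -0.09 with a 95% interval of -0.48 to 0.30 (limma, adjusted p = 0.9997). The interval spans changes in both directions, so the data do not show that Igfbp1 was equal in the 2 groups. Its sign turned without control replicate 3, where the difference was 0.052. The 4 probe sets did not move one way, with differences of 0.034, 0.031, -0.29 and -0.13.

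Of 8 other genes that insulin represses, among them targets of FoxO1, 6 lay above 0 and 2 below, with a median of 0.064, and the count above 0 was 4 to 6 with 1 mouse left out. Of the 4 FoxO factors, 1 lay above 0 and 3 below, with a median of -0.11, but 3 lay above 0 without control replicate 1. None of the 12 passed 5% FDR, and 1 had an unadjusted p under 0.05 (3.06% of all tested genes did). That gene was Ppargc1a, the coactivator of gluconeogenesis, at 6.58 ± 0.26 in miR-143DOX against 7.12 ± 0.45 in control (difference -0.54, 95% interval -1.01 to -0.07). Its groups overlapped and control replicate 1 was the highest mouse, at 7.64 against 6.95 and 6.78 in the other control mice, and without it the difference was -0.28 (-0.67 to 0.10). Pck1, which makes phosphoenolpyruvate for gluconeogenesis, stood at 12.47 ± 0.12 in miR-143DOX and 12.45 ± 0.22 in control. G6pc, the glucose-6-phosphatase that releases glucose, stood at 12.97 ± 0.09 in miR-143DOX and 12.89 ± 0.16 in control. Irs2, an insulin receptor substrate, stood at 7.64 ± 0.06 in miR-143DOX and 7.48 ± 0.47 in control, and Foxo1 itself at 7.96 ± 0.22 in miR-143DOX and 8.22 ± 0.12 in control. The groups did not overlap for 2 of the 8 repressed genes, in opposite directions (7.13% of all tested genes either way). Sesn3, a sestrin, differed by 0.29, and Apoc3, an apolipoprotein that slows the clearance of triglycerides, by -0.14. Pdk4, a kinase that blocks pyruvate oxidation, differed by 0.69 through miR-143DOX replicate 1, at 7.64 in that mouse against 6.23 and 5.94 in the other miR-143DOX mice and 5.65 to 6.20 in control mice.

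Factors known to act on the Igfbp1 promoter gave 7 values above 0 and 8 below among 15 tested, with a median of -0.017 and none at an unadjusted p under 0.05. Those with the smallest p were the stress factor Ddit3 at -0.33 (95% interval -0.67 to 0.01), Cebpb at -0.19, Foxa1 at -0.19 and Foxa3 at -0.16. Of the genes that insulin induces, 8 of 9 tested lay above 0, with a median of 0.35 (47.6% of all tested genes lay below 0). In that list Fasn, for fatty acid synthase, stood at 0.51 and Me1, for malic enzyme, at 0.65. Of the 9 only Fasn had groups that did not overlap (7.13% of all tested genes did). Fasn and Me1 had an unadjusted p under 0.05 (3.06% of all tested genes did), and 0 passed 5% FDR. Acly and Pnpla3 followed at 0.55 and 0.45. The mean deviation of the 9 genes was 0.55, 0.02 and -0.03 in miR-143DOX mice 1 to 3, against -0.48, 0.09 and -0.15 in control mice 1 to 3. The highest and the lowest are the mice with the lowest and the highest value of Igfbp2, and the other 4 mice overlapped. Leaving out miR-143DOX replicate 1 gave a median difference of 0.15 and leaving out control replicate 1 one of 0.27, with none of the 9 genes at an unadjusted p under 0.05 in either case. Without both mice it was 0.035, with 5 genes above 0 and 4 below. Without miR-143DOX replicate 1 Fasn stood at 0.31, Me1 at 0.41, Acly at 0.22 and Pnpla3 at 0.15.

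Igfbp2 measured 9.65, 9.71 and 9.87 in miR-143DOX mice 1 to 3, against 10.83, 10.13 and 10.06 in control mice 1 to 3. All miR-143DOX mice were lower than all control mice, and control replicate 1 stood far above the other control mice. The means were 9.74 ± 0.11 in miR-143DOX and 10.34 ± 0.43 in control (SD, n = 3 each). The difference of -0.59 had a standard error of 0.19 and a 95% interval of -1.02 to -0.17, a 1.51-fold lower level in miR-143DOX. It ranked 84th by p among the tested genes, at an unadjusted p of 0.00973, and did not pass over all of them (limma adjusted p = 0.9997, 0.639 or higher over the alternatives). The exact two-sided permutation test over the 6 mice gave p = 0.1, the smallest that 3 against 3 can give. Groups apart in this direction were found for 3.73% of all tested genes.

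Control replicate 1 set much of the size. Without it the difference in Igfbp2 was -0.35 (95% interval -0.67 to -0.03), and without replicate 1 of both groups it was -0.30 (-0.68 to 0.07). With any other single mouse left out it lay between -0.55 and -0.73, and it was below 0 in every setting tried. The sign was shared by the 4 probe sets of Igfbp2, at -0.33, -0.62, -0.60 and -0.83. The probe set with the largest difference measured 8.83, 8.96 and 9.24 in miR-143DOX mice 1 to 3, against 10.29, 9.67 and 9.55 in control mice 1 to 3. The groups were apart for 3 of the 4 probe sets (4.53% of all tested probe sets lay apart in this direction), and the exception had control replicate 3 at 8.78, among the miR-143DOX values of 8.77 to 8.82. No probe set of the 6 genes passed 5% FDR over 159072 probe sets, of which 0 (0%) did.

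**Figure D2:**
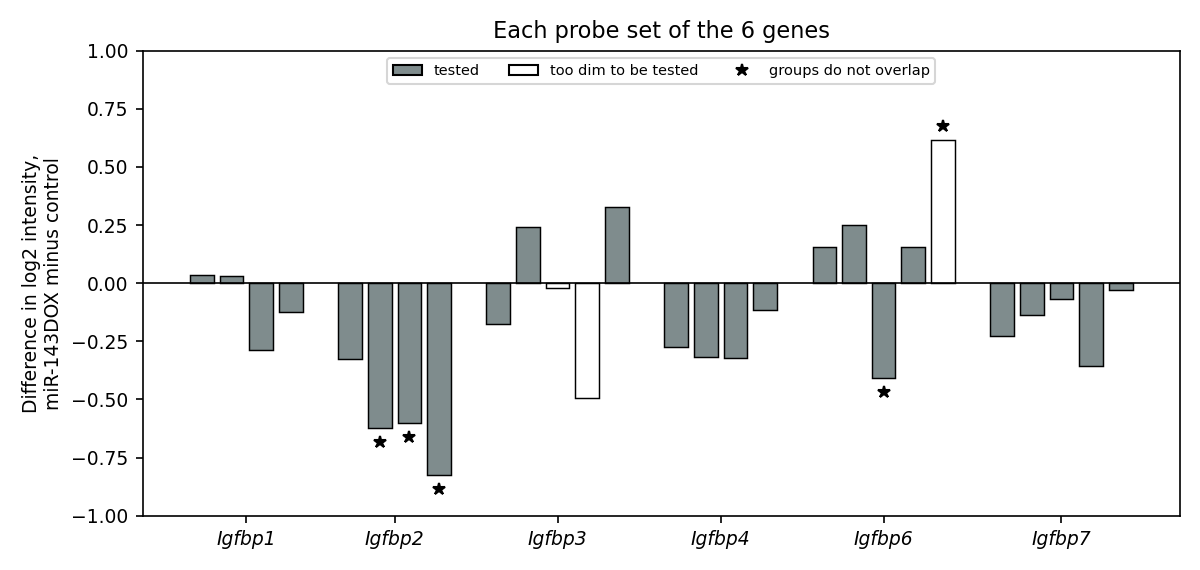
Difference in log2 intensity, miR-143DOX minus control, of each of the 27 probe sets of the 6 genes. Grey bars were tested, white bars were too dim to be tested, and stars mark probe sets whose groups did not overlap. The bars of Igfbp2, Igfbp4 and Igfbp7 all point down, while those of Igfbp1, Igfbp3 and Igfbp6 point both ways.

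Igfbp4 measured 11.43, 11.72 and 11.70 in miR-143DOX mice 1 to 3, against 12.15, 11.69 and 11.79 in control mice 1 to 3. The groups overlapped at control replicate 2, and the mice at the ends were again replicate 1 of each group. The means were 11.62 ± 0.16 in miR-143DOX and 11.88 ± 0.24 in control (SD, n = 3 each), a difference of -0.26 with a 95% interval of -0.60 to 0.09 (limma adjusted p = 0.9997). Its 4 probe sets ran from -0.32 to -0.12, all below 0. The difference was -0.12 with control replicate 1 left out, -0.16 with miR-143DOX replicate 1 left out, and -0.03 without both. Its brightest probe set gave -0.12.

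Igfbp2 and Igfbp4 varied alike over the 6 mice, with Pearson r = 0.91 (exact permutation p = 0.0181, 0.271 adjusted over 15 pairs of members) and Spearman rho = 0.60 (exact permutation p = 0.242, adjusted 0.725). Without the 2 mice farthest from the median of Igfbp2, r was 0.14, so the relation rests on those mice. It was computed also on deviations from each group's mean, where r was 0.86. The pair of Igfbp3 and Igfbp4 ran opposite ways, at r = -0.75 (exact permutation p = 0.05, adjusted 0.375) and rho = -0.77 (exact permutation p = 0.103, adjusted 0.681), with r = -0.55 without the 2 mice farthest from the median of Igfbp3. On deviations from the group means its r was -0.98. The smallest Spearman p was that of Igfbp2 and Igfbp6, at rho = -0.83 (exact permutation p = 0.0583, adjusted 0.681) and r = -0.35 (exact permutation p = 0.385, adjusted 0.721). Its r was -0.57 without the 2 mice farthest from the median of Igfbp2, and it turned to 0.33 on deviations from the group means. No pair of the 15 passed the adjustment, which covered r and rho over all 6 mice. The r on deviations from the group means and the r without 2 mice rest on few values and were not tested.

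**Figure D3:**
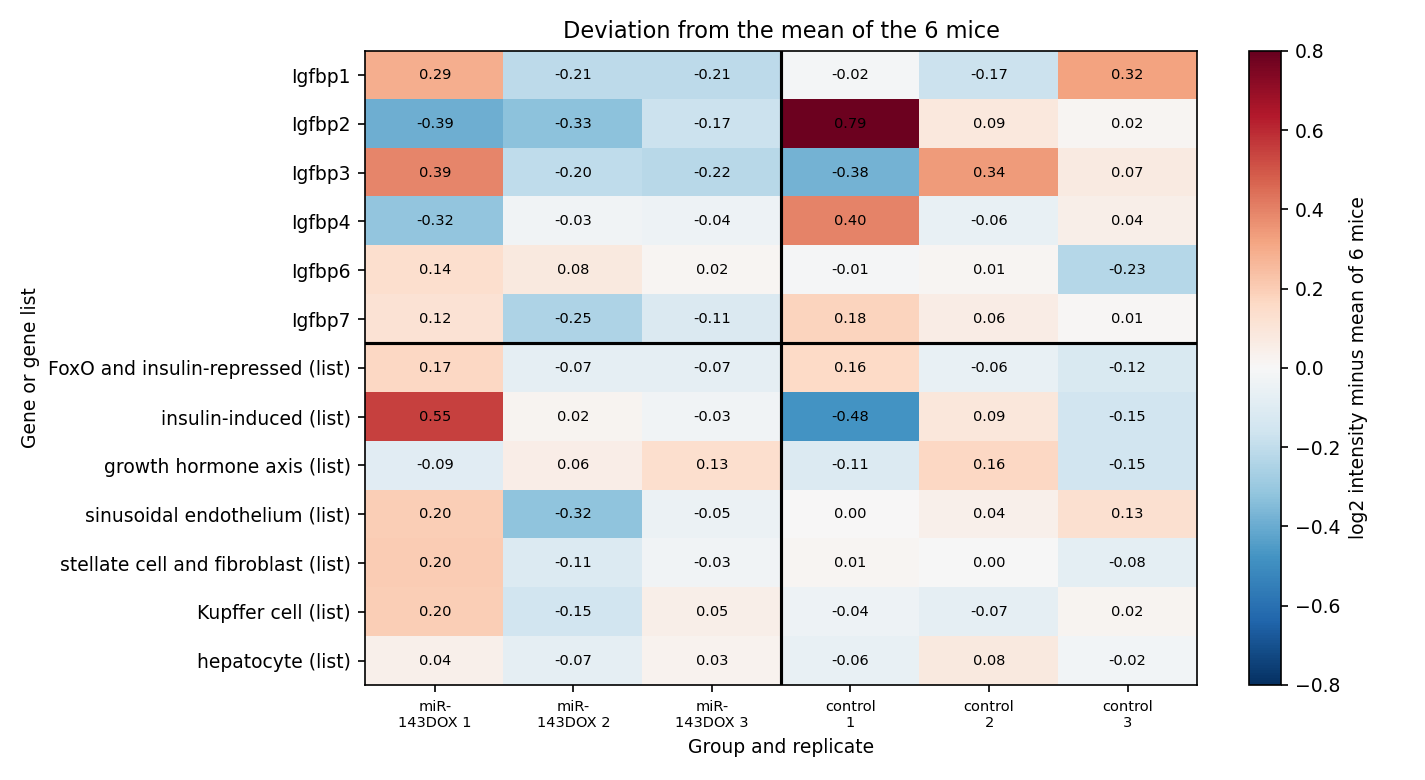
Log2 intensity of each member, and mean of selected gene lists, in every mouse after subtracting the mean of the 6 mice. The lists drawn are FoxO and insulin-repressed, insulin-induced, growth hormone axis, sinusoidal endothelium, stellate cell and fibroblast, Kupffer cell and hepatocyte. Columns are miR-143DOX replicates 1 to 3, then control replicates 1 to 3. Igfbp2 and Igfbp4 are highest in control replicate 1 (0.79 and 0.40) and lowest in miR-143DOX replicate 1 (-0.39 and -0.32), and the insulin-induced list has the opposite ends in these 2 mice.

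Igfbp3 measured 6.78, 6.19 and 6.17 in miR-143DOX mice 1 to 3, against 6.02, 6.73 and 6.47 in control mice 1 to 3. Both groups were spread over nearly the same range, and the member varied more between mice than 92.0% of the tested genes. The means were 6.38 ± 0.35 in miR-143DOX and 6.41 ± 0.36 in control (SD, n = 3 each), a difference of -0.02 with a 95% interval of -0.48 to 0.43 (limma adjusted p = 0.9997). The sign turned without miR-143DOX replicate 2 or 3 and without control replicate 2 or 3, and without replicate 1 of both groups the difference was -0.42 (-0.80 to -0.03). Of its 5 probe sets 3 were bright enough to be tested, at -0.17, 0.24 and 0.33. Those too dim to be tested, at -0.02 and -0.49, are also part of the gene mean, so its sign rests in part on them. In rat liver Igfbp3 is made mainly by cells other than hepatocytes. Stellate cell and fibroblast markers (9 of 10 tested, 6 above 0, median 0.040) had means of 6.79 to 7.10 in miR-143DOX and 6.82 to 6.91 in control arrays. Kupffer cell markers (10 of 10, 8 above 0, median 0.070) had means of 7.04 to 7.38 in miR-143DOX and 7.12 to 7.21 in control arrays. Igfbp3 and both lists were highest in the same mouse, miR-143DOX replicate 1. So were the markers of sinusoidal endothelium described below (deviation 0.20). Without that mouse 4 stellate and 4 Kupffer markers lay above 0. What part these cells had in the result was not tested.

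Igfbp7 measured 8.86, 8.49 and 8.62 in miR-143DOX mice 1 to 3, against 8.92, 8.80 and 8.74 in control mice 1 to 3. The groups overlapped through miR-143DOX replicate 1, while the other 2 miR-143DOX mice were below all control mice. The means were 8.66 ± 0.19 in miR-143DOX and 8.82 ± 0.09 in control (SD, n = 3 each), a difference of -0.16 with a 95% interval of -0.47 to 0.15 (limma adjusted p = 0.9997). Leaving out miR-143DOX replicate 2 gave -0.08, and leaving out replicate 1 of that group gave -0.26. All 5 probe sets lay below 0, from -0.35 to -0.03, and none was separate between the groups. Markers of sinusoidal endothelium, the vessel lining of the liver, had 9 of 10 differences below 0 and a median of -0.11, but 4 of 10 and a median of 0.036 without miR-143DOX replicate 2. Their mean ran from 7.21 to 7.73 in miR-143DOX and from 7.53 to 7.65 in control arrays. It was lowest in miR-143DOX replicate 2 (deviation -0.32), the mouse with the lowest Igfbp7 (-0.25), but highest in miR-143DOX replicate 1 (0.20), where Igfbp7 stood at 0.12 and control replicate 1 higher at 0.18. The part of these cells in the result was not tested. Clec4g, a lectin of that endothelium, was separate between the groups at -0.37, and the endothelial receptors Stab1 and Stab2 were at -0.09 and -0.17. Markers of other cells had separate groups too. These were Apoa1 (hepatocyte) at -0.15, Spp1 (bile duct) at -0.32, Timd4 (Kupffer cell) at -0.20 and Pdgfrb (stellate cell) at 0.23, besides Msln, described below. Separate groups either way were found for 7.13% of all tested genes.

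Igfbp6 measured 5.75, 5.69 and 5.63 in miR-143DOX mice 1 to 3, against 5.60, 5.63 and 5.38 in control mice 1 to 3. All miR-143DOX mice were above all control mice, by a gap of less than 0.01 between the closest pair, and control replicate 3 was the low one. The means were 5.69 ± 0.06 in miR-143DOX and 5.54 ± 0.13 in control (SD, n = 3 each), a difference of 0.15 with a 95% interval of -0.14 to 0.44 (limma adjusted p = 0.9997). It was the dimmest member, near the level of 5.06 under which genes were not tested, and without a detection call its signal cannot be told from background. Its 5 probe sets disagreed. One lay lower in all miR-143DOX mice, at -0.41, and the dimmest lay higher in all of them, at 0.62, though it was too dim to be tested. The gene mean includes this dimmest probe set, the only 1 of the 5 with that pattern. Those bright enough to be tested lay at 0.16, 0.25, -0.41 and 0.15. With the median over the probe sets of Igfbp6 the difference was -0.03, and without control replicate 3 it was 0.08. Markers of mesothelium, the outer lining of the liver, were dim as well. Upk1b and Gpm6a were below the cutoff for tests, and the 3 tested, Msln, Upk3b and Wt1, had means of 5.62 to 6.03 in miR-143DOX and 5.60 to 5.72 in control arrays. All 3 lay above 0, as Igfbp6 did, with a median of 0.25, and the groups did not overlap for Msln, at 0.25. Without miR-143DOX replicate 1, 2 of the 3 lay above 0 and 1 below. Their mean did not follow Igfbp6 in every mouse. It deviated by -0.15 in miR-143DOX replicate 3, below control replicates 1 and 2 (-0.05 and -0.09). The part of mesothelium in the result was not tested.

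**Figure D4:**
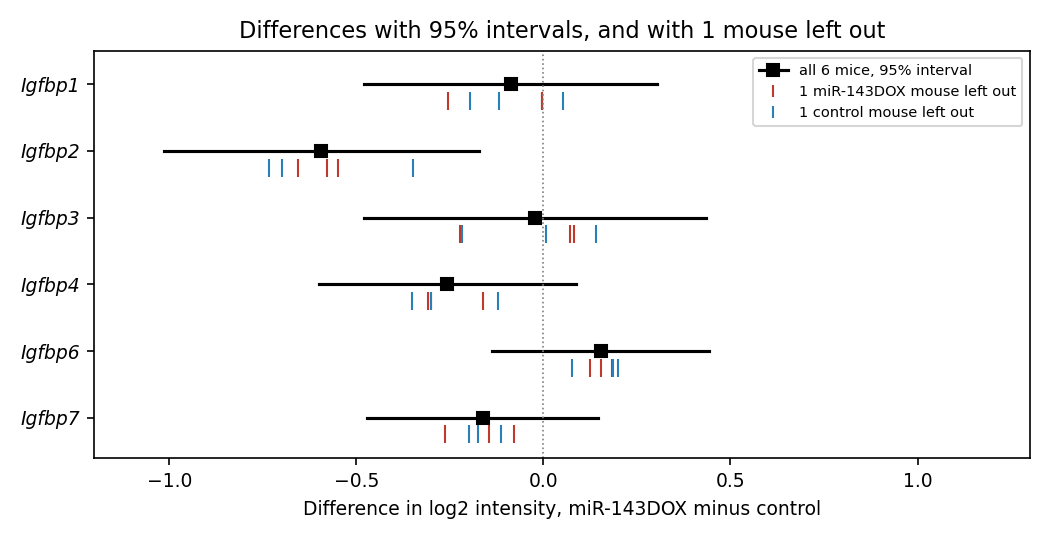
Difference in log2 intensity, miR-143DOX minus control, of each member with its 95% interval (square and line, all 6 mice) and with 1 miR-143DOX or 1 control mouse left out (ticks). The interval of Igfbp2, from -1.02 to -0.17, is the only one that does not reach 0. The ticks of Igfbp1 and Igfbp3 fall on both sides of 0.

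Whether the probe sets of a gene moved apart between the groups was asked with limma's diffSplice F test over 16010 genes, of which 6 (0.0375%) passed 5% FDR. No member did, with 3 to 5 tested probe sets each and unadjusted p from 0.423 for Igfbp6 to 0.880 for Igfbp4 (adjusted p = 1 for all 6). The differing signs among the tested probe sets of Igfbp1, Igfbp3 and Igfbp6 therefore did not pass a test across probe sets. The dim probe sets of Igfbp3 (-0.02 and -0.49) and Igfbp6 (0.62) were not part of it.

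The partners of the binding proteins showed no difference past the test. Of the IGF ligands, the acid-labile subunit and the receptors, 6 of 7 were tested, 2 above 0 and 4 below, with a median of -0.13 and 0 at an unadjusted p under 0.05. Igf1, the main IGF of liver, measured 11.25, 11.44 and 11.73 in miR-143DOX mice 1 to 3, against 11.67, 11.73 and 11.34 in control mice 1 to 3. The groups overlapped, at a difference of -0.10 (95% interval -0.46 to 0.25). Igfals, which encodes the acid-labile subunit, measured 8.30, 8.62 and 8.95 in miR-143DOX mice 1 to 3, against 9.38, 8.56 and 8.69 in control mice 1 to 3. Its lowest and highest mice were those of Igfbp2 and Igfbp4, and its difference was -0.25 (-0.74 to 0.23). The insulin receptor gene Insr differed by -0.34 (-0.73 to 0.06), Igf2r, which clears IGF-II, by -0.15, and Igf2, dim in adult liver, by 0.15. Igf1r, the receptor for IGF-I, was below the cutoff in these hepatocytes, at 5.08 ± 0.02 in miR-143DOX and 5.02 ± 0.15 in control.

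Proteases that cut IGFBPs and their inhibitors gave 5 values above 0 and 5 below among 10 tested, with a median of 0.012 and none at an unadjusted p under 0.05. Plasminogen (Plg) had the smallest p, at 12.57 ± 0.15 in miR-143DOX against 12.79 ± 0.06 in control (difference -0.22), with separate groups. Plg was also among the 6 genes whose probe sets differed among themselves, as was the mesothelial marker Upk3b. Mmp7 differed by -0.27, Adam12 by 0.14 and prothrombin (F2) by -0.11. Pappa, which cleaves IGFBP-4, stood at 5.22 ± 0.21 in miR-143DOX and 5.23 ± 0.11 in control, close to the cutoff. Other genes with an IGFBP-type N-terminal domain, such as the CCN family, gave 6 above 0 and 4 below among 10 tested, with a median of 0.022 and none at an unadjusted p under 0.05. Htra4 differed by -0.21, Ccn2 by -0.29, Ccn4 by 0.18 and Ccn5 by 0.09. The growth hormone axis drives Igf1 and Igfals in liver. Its list, which includes both of these targets, had 4 genes above 0 and 4 below among 8. The median was 0.052, and none had an unadjusted p under 0.05. Igf1 and Igfals, described above, were among those below 0, at -0.10 and -0.25. The transcription factor gene Stat5a differed by 0.29, its kinase Jak2 by 0.21 and the feedback gene Cish by 0.36.

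The genes whose values over the 6 mice ran most like each member were taken by Pearson r, as a description, from 6633 genes. These were the tested genes with an SD over the mice above the median of tested genes, leaving out the members and genes with predicted or clone-based names (Gm, Rik and LOC) and olfactory receptors (Olfr). The closest to Igfbp1 were Soat1 (r = 0.98), D10Wsu102e (0.97) and Tbc1d1 (0.97), and to Igfbp2 Nudt3 (0.98), Fetub (0.97) and Tm2d2 (0.97). Fetub encodes fetuin-B, a plasma protein from hepatocytes, and differed by -0.50. The closest to Igfbp3 were Casc4 (0.99), Sdpr (0.98) and Atl1 (0.97). Sdpr encodes a caveolar coat protein. Igfbp4 was most like Zbtb48 (0.99), Gde1 (0.99) and Hlf (0.98), the last a clock-controlled transcription factor, which differed by -0.29. Igfbp6 was most like Thg1l, Pgm2 and Trib3 (0.99 each), and Igfbp7 most like Tmed3, Ces2 and Kcnj14 (0.97 each). With so many candidates and 6 mice high values are common, and 6 to 22 genes per member exceeded r = 0.95.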

How the data were processed

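The series matrix holds log2 intensities of 234873 probe sets as the authors deposited them. Partek is named, with no version, per the submitters' processing notes, and the sources used here do not give the background correction or normalization. The scale was taken as log2 from the span of the values. The 95th percentiles of the arrays differed by 0.135, over the set limit of 0.1, so values were quantile normalized. Probe sets with 1 gene symbol (212097) were averaged per gene, dim ones included. The dimmest 25% of genes by mean over all mice (under 5.06) were not tested, and single probe sets were filtered alike.

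Tests were limma's moderated two-sided tests of group alone (limma 3.58.1, lmFit then eBayes, R 4.3.3), with Benjamini-Hochberg adjustment over all features, and the steps were tested on simulated data. There diffSplice called too many genes when probe sets of a gene differed in spread, so its count may include false calls. Exact permutation tests used all splits or orders of the 6 mice. Precision is limited by the number of arrays. The members, lists and tests were chosen with earlier results of these data known. Named genes were the members, fixed IGF, FoxO and gluconeogenesis genes, up to 4 per list with the smallest p, and the 3 most alike per member. Other names (markers, and genes with separate groups) were chosen after their values were seen. Gene lists were matched also through older symbols. Replicate numbers were not used to pair the mice in the reported tests. Deviations of same-numbered mice correlated at 0.107, 0.0468 and 0.296. The best partner was the same-numbered mouse for replicates 2 and 3, but replicate 2 for replicate 1. These values do not settle whether the numbers pair the mice, and the numbers were also run as a block.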

Additional observations from a re-analysis of the deposited data

How the results depend on the processing

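Over 16 other settings (14 for Igfbp6, which was not tested with the lowest 40% left out or by its brightest probe set), no member passed 5% FDR, at adjusted p of 0.639 or higher. Igfbp2, Igfbp4 and Igfbp7 kept differences below 0 in every setting, from -0.73 to -0.30, from -0.35 to -0.03 and from -0.26 to -0.03. Igfbp1 turned to 0.0011 with the median of its probe sets, 0.028 with array weights and 0.052 without control replicate 3 (-0.25 to 0.052 with 1 mouse left out). Igfbp3 turned to 0.24 with its brightest probe set, 0.071 and 0.082 without miR-143DOX replicates 2 and 3, and 0.14 and 0.0074 without control replicates 2 and 3 (-0.22 to 0.14 with 1 mouse left out). Igfbp6 turned to -0.027 with the median of its probe sets. With the replicate number as a block, Igfbp2 stayed at -0.59 (adjusted p = 0.959), no gene or probe set passed, and the genes whose probe sets differed numbered 11. That count was 6 as reported, 20 with no filter, 2 (Actn4 and Plg) with the lowest 40% left out, 12 with array weights, and 1 (Dusp12, without control replicate 3) to 48 (without miR-143DOX replicate 3) with 1 mouse left out. Leaving out replicate 1 of both groups, and leaving out mice for the gene lists, were chosen after seeing the data. The first gave 3 such genes (Actn4, Eif4g2 and Serpinc1) and 1 gene past 5% FDR, Dcpp1, against 0 as reported and in the 15 planned settings. No probe set passed in any setting tried. Quantile normalization is the setting reported, and the trended prior was not run for diffSplice. The causes were not tested.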
